A study of Mus musculus with 16 samples.

Results

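Complement is a cascade of plasma and tissue proteins that tags cells and debris for removal. The classical branch starts when C1q, built from the products of *C1qa*, *C1qb* and *C1qc*, binds a surface and activates the proteases C1r and C1s, which cleave C4 and then C3. C1 inhibitor, encoded by *Serping1*, blocks the proteases, and a small fragment of C3 is sensed by the receptor C3aR1. In tissues C1q and C3aR1 are made mainly by macrophages, while fibroblasts and other stromal cells make C1r, C1s, C3, C4 and C1 inhibitor, and the liver supplies much of the plasma pool. The 9 genes described here are these components by name: *C1qa*, *C1qb*, *C1qc*, *C1ra*, *C1s1*, *C4b*, *C3*, *Serping1* and *C3ar1*. All 9 of the 9, among 25054 genes in the raw count table, were found by symbol and were tested.

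RNA was sequenced from 16 osteosarcomas of mice. The 8 KO tumors carried OsxCreERT2+/-, p53fl/fl, Rb1fl/fl and Arid1afl/fl, and the 8 WT tumors carried the same alleles without Arid1afl/fl, so loss of p53 and Rb1 was common to both groups. Osterix drives the Cre in cells of the osteoblast lineage, so macrophages and other host cells are not its intended target, and tamoxifen was given to all mice at 1 month of age at 400 μg per gram. The mice were over 6 months old and of both sexes. The KO tumors came from 8 mice, 1 each. The WT tumors came from 4 mice by their codes, with 4 tumors of N42, 2 of N43 and 1 each of N215 and N25, so the WT values are not all independent.

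The totals ran from 1109487 to 15059640 counts in KO and from 7806160 to 16962329 in WT, and the shallowest were Massa and Grilka, in KO. Whole-gene counts of *Arid1a* did not separate the groups (log2 difference 0.16 ± 0.22 SE, edgeR quasi-likelihood adjusted p = 0.715), and they cannot show a deleted exon by itself. Several tumors held transcripts of other tissues: lung markers were high in Massa and in the WT tumor labeled N25 lung, liver markers in Zelda, skeletal muscle markers in Montana and Oregon, and salivary gland markers in Prince. Osteoblast markers were present in every tumor, from 718 to 61034 summed CPM (counts scaled to a common library total, with TMM factors) in KO and from 2914 to 84238 in WT, but Massa had no count of *Bglap*, *Bglap2* or *Sp7*, N215 none of *Bglap* or *Bglap2*, and Prince none of *Dmp1*.

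Of the 9 genes, 6 were lower in KO past the threshold of 0.05 on the adjusted p (edgeR quasi-likelihood test, Benjamini-Hochberg over 15413 genes) and 0 were higher, against 2.15% of all genes tested called lower, 1.86% called higher and 4.01% called in either direction. At an unadjusted p under 0.05, 7 were lower and 0 higher, where 3546 of the 15413 genes tested were under it in either direction. DESeq2 called 7 lower and 0 higher, where it called 4.77% of all genes lower. The median log2 difference was −1.84 over the 9 genes and 0.10 over all genes tested. *C1qa*, *C1qb*, *C1qc*, *C1ra*, *Serping1* and *C3ar1* passed, *C1s1* missed the threshold, and *C4b* and *C3* had fitted differences near 0 with wide errors. The calls rest on treating tumors of one mouse as separate. With counts summed per mouse (8 KO and 4 WT mice) 7 had an unadjusted p under 0.05 but 0 of 9 passed. In that fit only 4 of 16007 genes tested were called lower. Without the tumors of N42 the counts were again 7 and 0, and 3 of 16050 genes tested were called lower. The 0 of 9 is thus near the share over all genes in both fits. For these fits the share of all genes at that unadjusted p was not computed, so the 7 cannot be set against it.

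**Figure D1:**
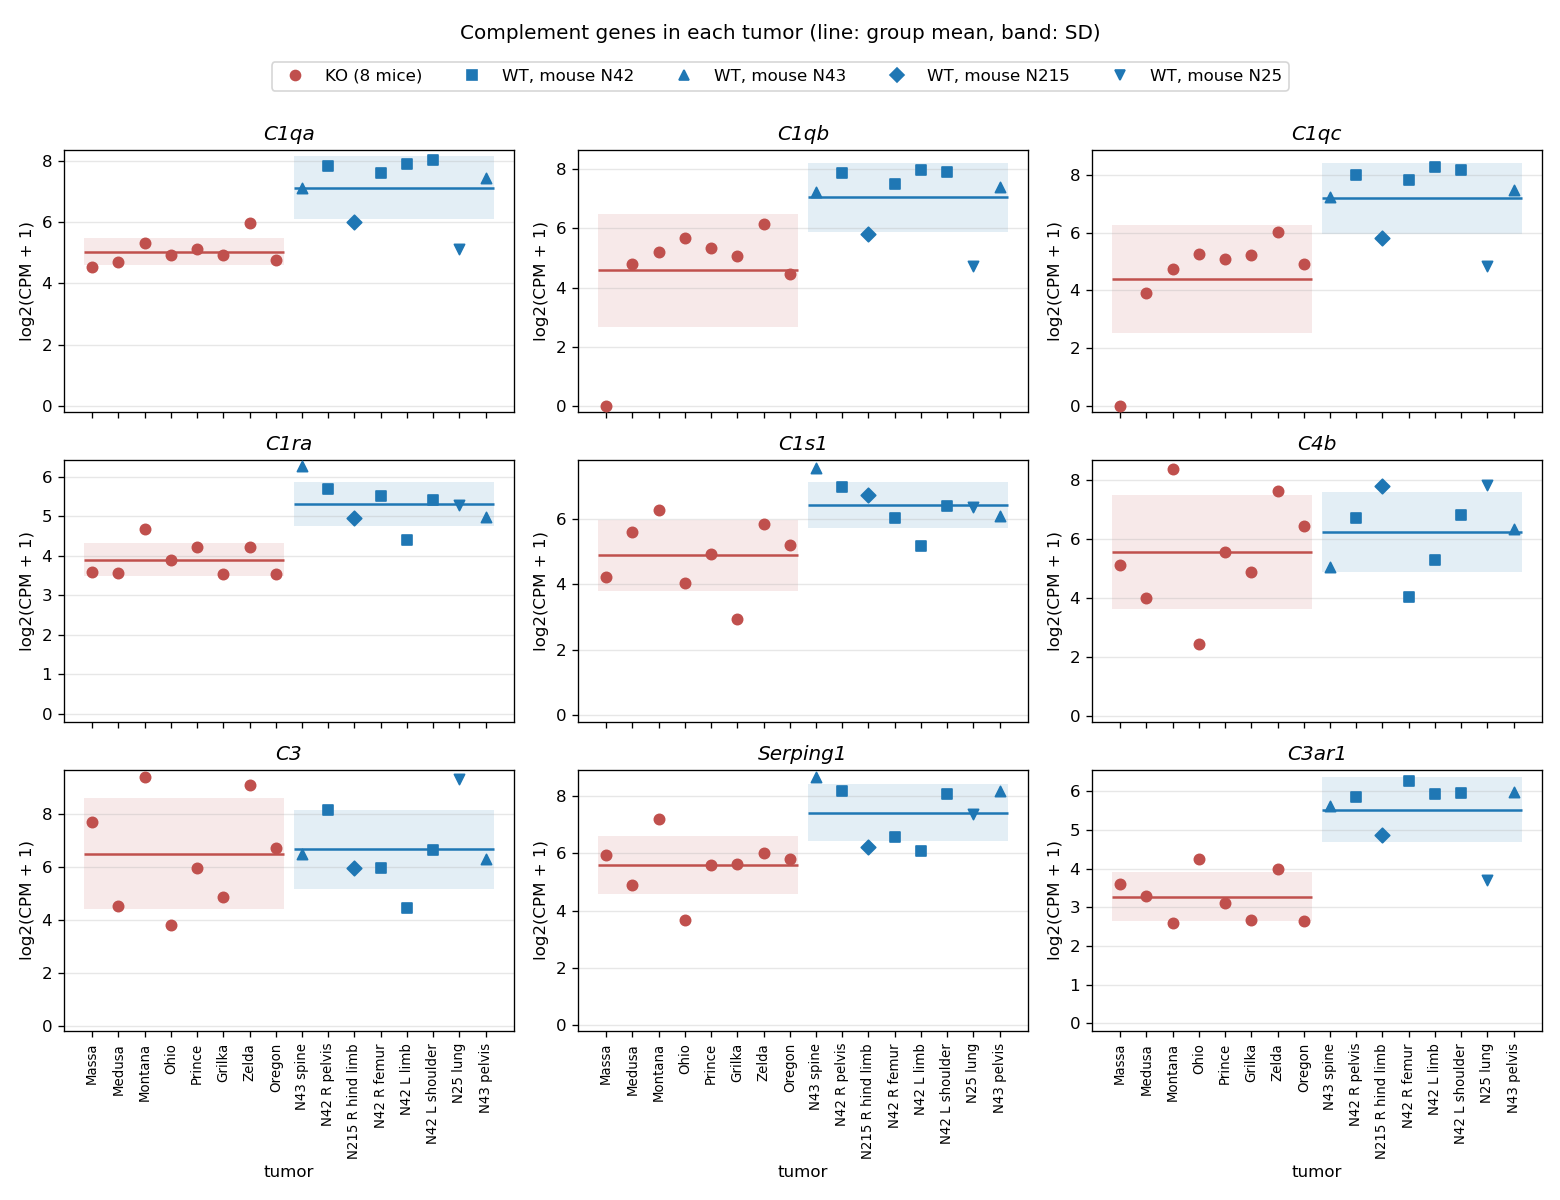
Level of each gene in each tumor, as log2 of CPM plus 1, with the group mean as a line and the SD as a band. KO tumors are red circles and WT tumors blue, with a marker for each mouse. *C1qa*, *C1qb*, *C1qc* and *C3ar1* are high in the 6 tumors of N42 and N43, lower in N215 R hind limb and lowest among WT in N25 lung. For *C1qb* and *C1qc* N215 R hind limb lies below Zelda, and for *C1qa* just above it. *C4b* and *C3* overlap widely between the groups. *C1qb* and *C1qc* are at 0 in Massa.

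The 3 genes of C1q lie side by side on the minus strand of chromosome 4, in the order *C1qb*, *C1qc*, *C1qa*, between 136880129 and 136898803 (GRCm38, GENCODE vM21), with no other annotated gene in these 18675 bases. *C1qa* had from 22.3 CPM (Massa) to 61.6 CPM (Zelda) in KO, with a median of 29.6, and from 33.6 CPM (N25 lung) to 257 CPM (N42 L shoulder) in WT, with a median of 182. The groups overlapped only through Zelda, Montana and Prince on the KO side and N25 lung on the WT side. The other 5 of 8 KO tumors lay below the lowest WT tumor. Of these, Massa and Grilka had only 10 and 22 counts of *C1qa*, so their places are uncertain. The KO tumors averaged 33.3 ± 12.6 CPM and the WT tumors 165 ± 81.5 CPM (SD, n = 8 each), and the fitted levels were 4.91-fold apart. The log2 difference was −2.30 ± 0.37 (SE, edgeR adjusted p = 0.00476), and with counts summed per mouse it was −1.78 ± 0.44 (adjusted p = 0.267).

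*C1qb* ran from 0 to 70.1 CPM in KO with a median of 34.0, and from 25.4 to 249 CPM in WT with a median of 176. *C1qc* ran from 0 to 63.1 CPM in KO with a median of 31.0, and from 27.6 to 304 CPM in WT with a median of 199. Zelda was the highest KO tumor for both and N25 lung the lowest WT tumor, as for *C1qa*. N215 R hind limb, at 54.8 CPM of *C1qb* and 54.6 CPM of *C1qc*, was also below Zelda. The WT tumors above every KO tumor for both genes thus came from mice N42 and N43 alone. For *C1qa* N215 R hind limb had 63.3 CPM, just above Zelda. The log2 difference was −2.22 ± 0.54 for *C1qb* (SE, edgeR adjusted p = 0.0322) and −2.60 ± 0.56 for *C1qc* (SE, edgeR adjusted p = 0.0176). Massa had 10 counts of *C1qa* and 0 of the other two, where a count of 0 allows up to 3 counts or 6.69 CPM. Without the tumors of Montana and Oregon (adjusted p = 0.0763 and 0.0519) or of N43 neither *C1qb* (adjusted p = 0.0937) nor *C1qc* (adjusted p = 0.0591) passed, and *C1qb* also lost its call when any of 10 tumors was left out (Medusa, Montana, Grilka, Oregon or any tumor of N42 or N43), with adjusted p up to 0.0710.

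Per kilobase of exon, *C1qa* and *C1qb* were at like levels and *C1qc* was lower. In WT the share of the summed C1q level was 36.9 to 46.1% for *C1qa*, 33.4 to 39.2% for *C1qb* and 20.3 to 25.7% for *C1qc*. In KO, Massa aside, the lowest and highest shares were 30.5% (Ohio) and 44.7% (Montana) for *C1qa*, 32.6% (Oregon) and 49.0% (Ohio) for *C1qb*, and 12.9% (Medusa) and 25.2% (Oregon) for *C1qc*. In WT the shares stayed close while the summed level ran from 69.95 to 614 CPM per kilobase.

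The promoters are shown for *C1qb* and *C1qc*, neighbors that were both lower in KO, and for *C3*, whose highest levels were in other tumors. They are the 300 bases from 250 before to 50 after a RefSeq start in GRCm38.p6, on the minus strand, and 6 of the 9 genes had an entry (*C1qa*, *C4b* and *Serping1* had none). Capitals mark matches on either strand to GAGGAA, the core bound by PU.1 and other ETS factors, or to GGGA and CC with 4 bases of any kind between them, a core of NF-kB sites. The letters were chosen after the data were seen.
C1qb, chr4:136886151-136886450: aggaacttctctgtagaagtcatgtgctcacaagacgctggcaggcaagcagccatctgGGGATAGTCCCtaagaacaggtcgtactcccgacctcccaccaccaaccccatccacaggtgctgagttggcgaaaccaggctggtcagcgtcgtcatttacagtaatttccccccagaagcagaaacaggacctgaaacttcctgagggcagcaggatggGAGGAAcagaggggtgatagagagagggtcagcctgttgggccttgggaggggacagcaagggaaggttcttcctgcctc
C1qc, chr4:136892865-136893164: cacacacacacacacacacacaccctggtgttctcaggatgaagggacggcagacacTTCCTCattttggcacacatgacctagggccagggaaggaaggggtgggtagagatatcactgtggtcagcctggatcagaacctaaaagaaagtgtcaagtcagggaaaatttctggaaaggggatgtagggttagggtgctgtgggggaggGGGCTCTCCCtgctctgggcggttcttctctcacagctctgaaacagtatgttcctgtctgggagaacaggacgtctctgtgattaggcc
C3, chr17:57228087-57228386: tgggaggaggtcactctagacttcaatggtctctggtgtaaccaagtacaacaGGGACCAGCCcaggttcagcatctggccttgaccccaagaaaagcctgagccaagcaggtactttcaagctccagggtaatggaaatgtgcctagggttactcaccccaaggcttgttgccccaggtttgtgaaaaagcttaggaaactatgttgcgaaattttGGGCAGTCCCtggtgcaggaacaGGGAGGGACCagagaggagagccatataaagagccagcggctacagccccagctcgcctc
GAGGAA was in the promoters of 3 of the 6 genes (*C1qb*, *C1qc* and *C1ra*) and in 28.3% of 32851 promoters of this length. The NF-kB core was in 4 of the 6 (*C1qb*, *C1qc*, *C1s1* and *C3*) and in 20.7%, with 3 matches in *C3* and a pair of overlapping matches on opposite strands in *C1qb*. Of the other letters searched, a pair of GAAA with 2 bases of any kind between them, of the interferon-stimulated response element, was in 0 of 6 and in 3.44% of all, and TTCNNNGAA, of STAT sites, was in *C1ra* and in 8.30%. Such matches describe the letters in these windows and were not tied to any factor.

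*C1ra* and *C1s1* encode the proteases that C1q activates and lie close together on chromosome 6 (GRCm38). *C1ra* ran from 10.6 CPM (Oregon) to 24.7 CPM (Montana) in KO with a median of 12.5, and from 20.2 CPM (N42 L limb) to 77.2 CPM (N43 spine) in WT with a median of 39.8. Only Montana among the KO tumors was above the lowest WT tumor, so 7 of 8 lay below all WT tumors. Of these, Massa and Grilka had only 5 and 8 counts of *C1ra*, so their places are uncertain. The mean was 14.6 ± 5.05 CPM in KO and 41.7 ± 17.2 CPM in WT (SD, n = 8 each), and the log2 difference was −1.49 ± 0.28 (SE, edgeR adjusted p = 0.0114; −1.39 ± 0.32 and adjusted p = 0.238 with counts summed per mouse). No leave-one-out fit ended this call, with adjusted p up to 0.0283.

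*C1s1* ran from 6.71 CPM (Grilka, 5 counts) to 76.8 CPM (Montana) in KO with a median of 32.7, and from 35.3 CPM (N42 L limb) to 189 CPM (N43 spine) in WT with a median of 82.8. The groups overlapped more than for *C1ra*, with 4 of 8 KO tumors below the lowest WT tumor. Of these, Massa and Grilka had only 8 and 5 counts of *C1s1*, so their places are uncertain. The log2 difference of −1.37 ± 0.42 (SE) missed the threshold (edgeR adjusted p = 0.0696), while DESeq2 called it (adjusted p = 0.0217), and it passed in edgeR without Montana (adjusted p = 0.0491) or without Zelda (adjusted p = 0.0464). The near copies *C1rb* and *C1s2* had 52 and 424 counts over all 16 tumors, and summing each with its copy changed no call. *C1s1* overlaps an antisense gene, *Gm16567*, and without a stated strand the reads of both cannot be told apart.

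The components that these proteases act on were not called in either direction. *C4b* ran from 4.39 CPM (Ohio) to 330 CPM (Montana) in KO with a median of 39.4, and from 15.1 CPM (N42 R femur) to 227 CPM (N25 lung) in WT with a median of 91.7. Its log2 difference was −0.15 ± 0.72 (SE, edgeR adjusted p = 0.929), and *C4a*, a near copy, had 380 counts in all. *C3*, the component on which all branches converge, ran from 12.98 CPM (Ohio) to 680 CPM (Montana) in KO with a median of 83.5, and from 21.0 CPM (N42 L limb) to 651 CPM (N25 lung) in WT with a median of 84.3. Its log2 difference was 0.31 ± 0.82 (SE, edgeR adjusted p = 0.862), and its sign changed without Montana (−0.26) or without Zelda (−0.08). An SE of this size leaves several-fold differences in either direction undetected.

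The tumors with the most *C3* are given here beside their markers of other tissues. After Montana (680 CPM) and N25 lung (651 CPM) came Zelda (548 CPM), N42 R pelvis (283 CPM) and Massa (212 CPM). Summed lung markers were 28781 CPM in N25 lung, 11271 CPM in Massa and at most 17.3 CPM elsewhere, and all 8 markers were detected in both. Summed liver markers were 1873 CPM in Zelda and at most 59.9 CPM elsewhere. N42 R pelvis had 2211 CPM of muscle markers, within the 8.91 to 9074 CPM of the WT tumors, and Montana had 104544 CPM and the highest adipocyte sum, 574 CPM. Oregon had 156614 CPM of muscle markers but only 105 CPM of *C3*, and Prince, with 115869 CPM of salivary gland markers, had 61.8 CPM. The part of these tissues in the *C3* and *C4b* values was not tested.

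*Serping1*, which encodes C1 inhibitor, was lower in KO. It ran from 11.8 CPM (Ohio) to 147 CPM (Montana) in KO with a median of 51.3, and from 67.3 CPM (N42 L limb) to 405 CPM (N43 spine) in WT with a median of 217. All KO tumors but Montana lay below the lowest WT tumor, though Massa had only 27 counts of *Serping1*, so its place is uncertain. The log2 difference was −1.84 ± 0.47 (SE, edgeR adjusted p = 0.0395; −1.68 ± 0.52 and adjusted p = 0.404 with counts summed per mouse). The call was lost when Medusa, Prince, Grilka, Oregon, N43 spine, N42 R pelvis, N42 L shoulder or N43 pelvis was left out, with adjusted p up to 0.0850, without both tumors of N43 (adjusted p = 0.154) and without Massa and Grilka (adjusted p = 0.0630).

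*C3ar1*, the receptor, had the smallest adjusted p of the 9. It ran from 5.10 CPM (Montana) to 17.9 CPM (Ohio) in KO with a median of 8.25, and from 12.1 CPM (N25 lung) to 76.2 CPM (N42 R femur) in WT with a median of 58.6. Only Ohio and Zelda in KO were above N25 lung, and the 7 other WT tumors were above every KO tumor. Massa and Grilka had only 5 and 4 counts of *C3ar1*, so their places are uncertain. The log2 difference was −2.39 ± 0.38 (SE, edgeR adjusted p = 0.00430; −1.99 ± 0.48 and adjusted p = 0.266 with counts summed per mouse). No gene of the 9 had every KO tumor below every WT tumor, a pattern shown by 0.208% of genes tested.

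Set side by side per kilobase of exon, the tumors differed in which components dominated. The summed C1q level was 79.0 ± 38.7 CPM per kilobase in KO and 404 ± 208 in WT (SD, n = 8 each), that of *C1ra* and *C1s1* was 16.3 ± 8.81 and 44.0 ± 20.3, and that of *C3* and *C4b* was 56.8 ± 70.0 and 50.9 ± 50.9. C1q made up 95.5% of these 7 genes in N42 L limb, where *C1ra* and *C1s1* were at their lowest in WT. It made up 87.9% in Ohio, the highest share in KO. In Montana (62.1%), N25 lung (60.5%) and Massa (60.4%) most of the sum was *C3* and *C4b*, and in Zelda these made up 43.9%. C1q exceeded the proteases 33.9-fold per kilobase in N42 L limb but 1.80-fold in N25 lung.

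**Figure D2:**
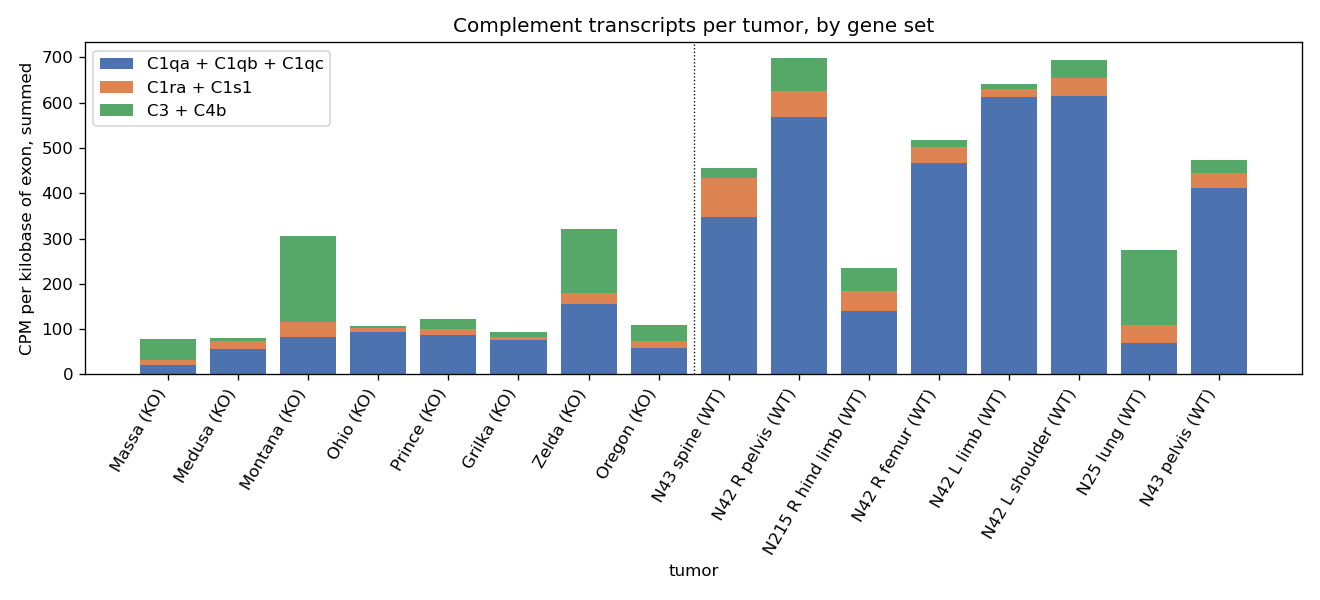
Summed level of C1q (*C1qa*, *C1qb*, *C1qc*), of the proteases (*C1ra*, *C1s1*) and of *C3* with *C4b* in each tumor, in CPM per kilobase of exon, with KO left and WT right of the dotted line. C1q fills most of the bar in every WT tumor but N25 lung and in Medusa, Ohio, Prince, Grilka and Oregon. *C3* and *C4b* fill most of it in Montana, Massa and N25 lung.

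Macrophage and stromal levels were read from marker genes outside the 9. Of 18 macrophage markers, 12 were lower in KO past the edgeR threshold, where 2.15% of all genes tested were called lower. Their median log2 difference was −1.96, and their sum was 285 to 1034 CPM in KO and 644 to 2518 CPM in WT. *Csf1r*, the receptor that macrophages need for growth, was at 29.0 to 125 CPM in KO and 71.2 to 499 CPM in WT, with a log2 difference of −2.03 (edgeR adjusted p = 0.0164). Of 14 stromal fibroblast markers, 3 were lower, against the same 2.15%, with a median of −1.24. Their sum was 931 to 6855 CPM in KO and 1964 to 30586 CPM in WT. Massa had no count of the macrophage genes *Cd163* and *Msr1* or of the stromal genes *Fap* and *Lum*, and Oregon none of *Cd14*. These marker calls also treat tumors of one mouse as separate, and with counts summed per mouse only 4 of all genes tested were called lower. Of 12 osteoblast and 12 interferon-stimulated genes, the median log2 difference was −1.06 and −0.11. In bulk tumors fewer macrophages and less RNA per macrophage cannot be told apart.

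Levels were also set relative to these markers. *C1qa* minus the macrophage score (the mean log2 CPM of the 18 markers) was 0.45 to 1.94 in KO and 0.69 to 1.66 in WT, so the KO range held all WT tumors. *C3ar1* minus that score was −1.48 to 0.83 in KO and −0.76 to 0.22 in WT. The 0.83 was Massa, with 5 counts of *C3ar1*, and the next KO tumor was Ohio at 0.038. In KO 4 of 8 tumors (Medusa, Montana, Grilka and Zelda) lay below every WT tumor, Grilka with 4 counts of *C3ar1*. *C1ra* minus the stromal score was −3.41 to −0.80 in KO and −2.79 to −0.84 in WT, again with all WT tumors inside the KO range. *Serping1* minus the stromal score was −2.01 to 1.46 in KO and −0.76 to 1.28 in WT. *C3* minus the stromal score was −2.39 to 3.69 in KO and −2.50 to 3.26 in WT. For *C4b* it was −3.24 to 2.22 in KO and −3.99 to 1.74 in WT.

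**Figure D3:**
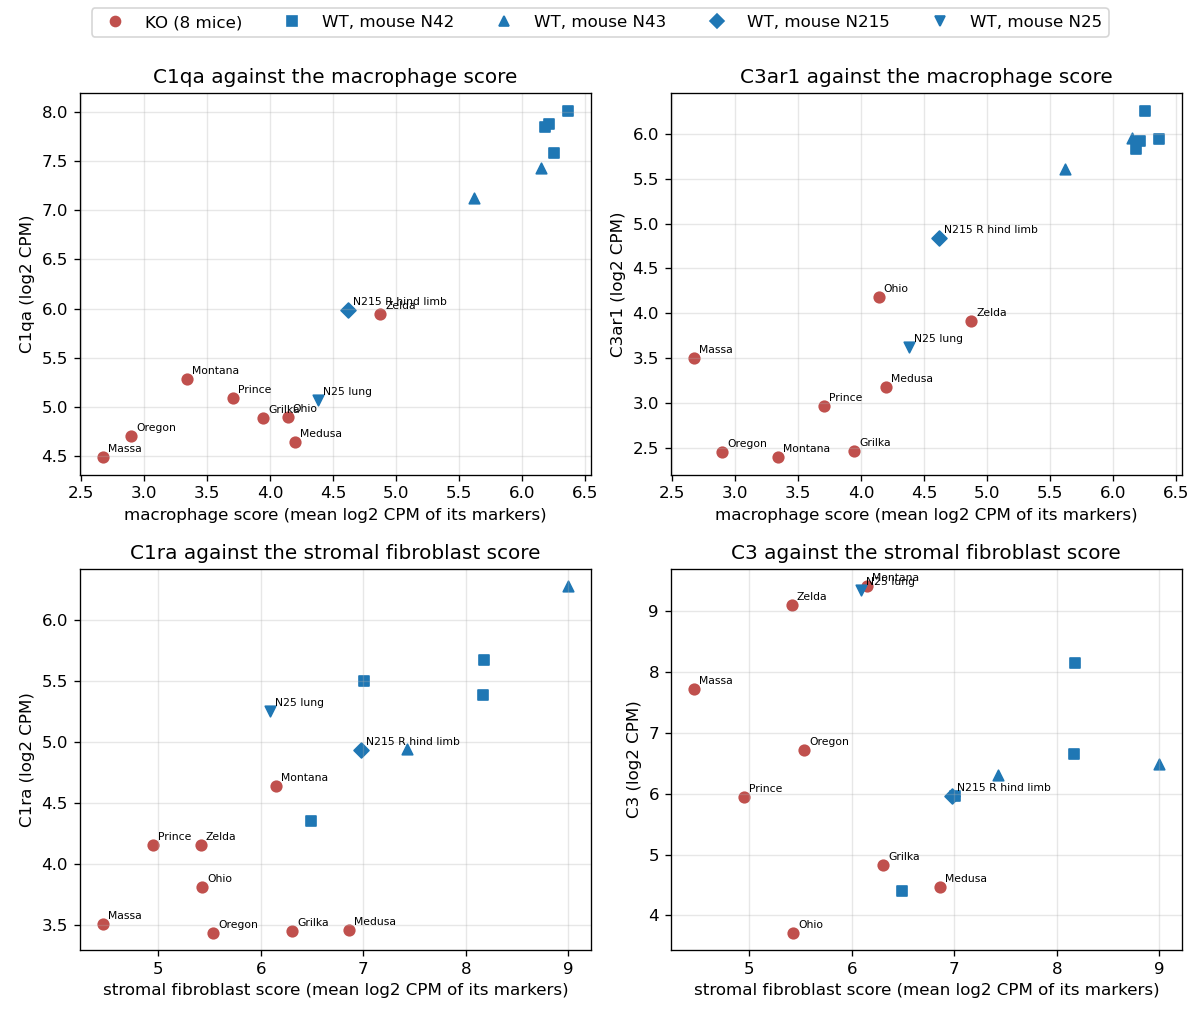
*C1qa* and *C3ar1* against the macrophage score, and *C1ra* and *C3* against the stromal fibroblast score, all in log2 CPM, with KO tumors as red circles and WT tumors in blue with a marker for each mouse. *C1qa* lies 0.45 to 1.94 above the macrophage score in KO and 0.69 to 1.66 in WT, and *C3* is as high in Montana and Zelda as in N25 lung at stromal scores below those of the 7 other WT tumors.

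With the macrophage score as a covariate, the fitted genotype differences of the C1q genes were smaller than their errors. They were −0.37 ± 0.47 for *C1qa* (edgeR adjusted p = 0.845), 0.51 ± 0.66 for *C1qb* and 0.07 ± 0.75 for *C1qc* (SE). Errors of this size leave sizeable differences in either direction undetected. *C3ar1* moved to −0.76 ± 0.48, while *C1ra* (−1.38 ± 0.49), *C1s1* (−1.42 ± 0.69) and *Serping1* (−1.96 ± 0.92) stayed near their values without the covariate. With the stromal score all of these genes moved toward 0, by differing amounts. *C1ra* moved to −0.93 ± 0.40, *C1s1* to −0.49 ± 0.55 and *Serping1* to −0.79 ± 0.65, and of the C1q genes *C1qa* moved to −1.90 ± 0.58, *C1qb* to −1.63 ± 0.85 and *C1qc* to −2.18 ± 0.89. *C3ar1* was at −2.31 ± 0.61, close to its −2.39 without the covariate. *C4b*, at −0.15 without a covariate, was farther from 0 with both, at −0.90 ± 0.99 (macrophage) and −0.50 ± 1.05 (stromal). *C3*, at 0.31 without a covariate, changed sign with both, to −0.34 ± 1.07 and −0.30 ± 1.13. No gene of the 9 passed in edgeR with either covariate, where 0.493% and 0.0195% of all genes were called lower past the same adjusted threshold. At an unadjusted p under 0.05 there were 2 and 4 of the 9. The share of all genes at that unadjusted p was not computed, so the 2 and 4 cannot be set against it. The scores differ between the genotypes themselves, so a fit cannot separate the 2 fully, and the shift from 1 fit to another was not tested.

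**Figure D4:**
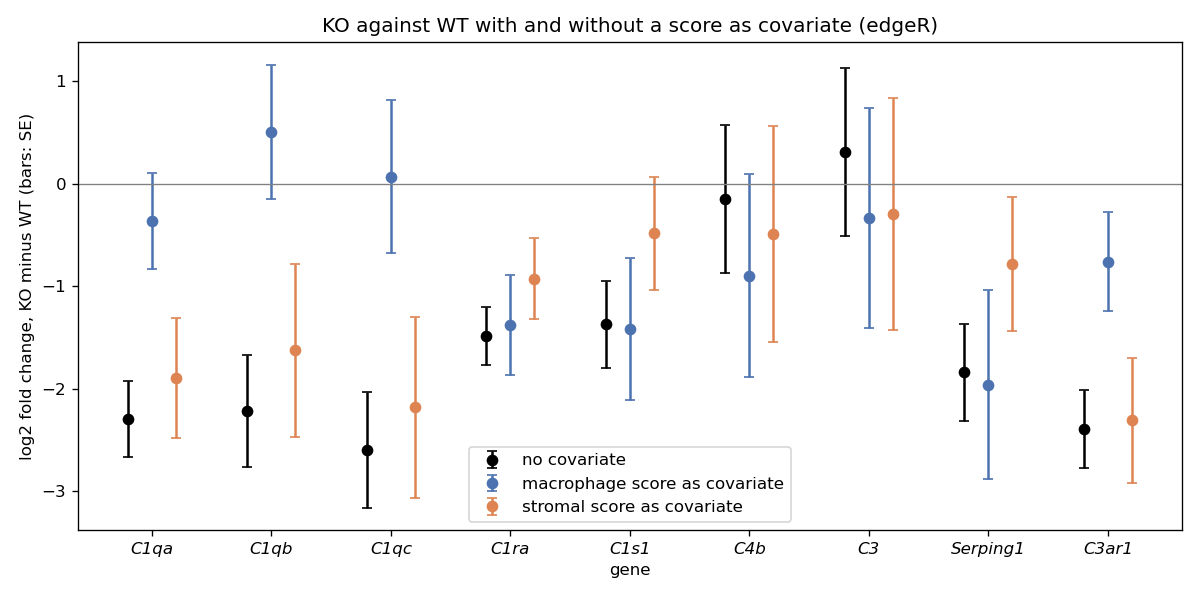
Log2 difference between KO and WT of each gene, with its SE as bars, fitted without a covariate (black), with the macrophage score (blue) and with the stromal score (orange). The blue points of *C1qa*, *C1qb* and *C1qc* lie between −0.37 and 0.51, and the orange points of *C1ra*, *C1s1* and *Serping1* lie between −0.93 and −0.49.

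Ribosomal RNA left in the libraries was read from the summed CPM of a few annotated genes taken to stand for it. As log2 of this CPM plus 1, it was also higher in KO, at 11.8 to 19.1 against 9.76 to 14.1 in WT. With this level as a covariate the log2 difference was −1.62 ± 0.51 for *C1qa*, −1.86 ± 0.49 for *C3ar1* and −0.99 ± 0.39 for *C1ra* (SE). In edgeR 0 of 9 passed, where only 3 of 15413 genes tested were called lower. At an unadjusted p under 0.05 there were 4 of the 9, and the share of all genes at it was not computed.

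Within the 8 KO tumors, where each tumor is a mouse of its own, some of the genes went together. Of 36 pairs, 4 passed by Pearson's r and 2 by Spearman's rho (exact permutation of all pairings, two-sided, Benjamini-Hochberg over the 36). *C4b* went with *C3* (r = 0.91, exact permutation p = 0.00156, adjusted p = 0.0188; rho = 0.93, p = 0.00223, adjusted p = 0.0402). *C3* went with *Serping1* (r = 0.86, exact permutation p = 0.000670, adjusted p = 0.0188; rho = 0.98, p = 0.000397, adjusted p = 0.0143). *C4b* went with *Serping1* (r = 0.93, exact permutation p = 0.00104, adjusted p = 0.0188; rho = 0.88, p = 0.00724, adjusted p = 0.0652). Without the 2 tumors farthest from the median of the first gene, r was 0.83, 0.82 and 0.76 over the other 6. Montana and Zelda were high and Ohio low in all 3 genes, and these pairs include the tumors with transcripts of other tissues. Without Montana, or without Zelda, 0 of 36 pairs passed by Pearson's r.

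*C1qb* and *C1qc* gave r = 0.99 (exact permutation p = 0.00392, adjusted p = 0.0353; rho = 0.83, p = 0.0154, adjusted p = 0.111), but Massa has 0 counts of both, and without Massa and Zelda r was 0.47. Each gene was also set against the 2 scores, and 0 of 18 such relations passed, with 1 at an unadjusted exact permutation p under 0.05. That was *C1qb* with the macrophage score (r = 0.69, p = 0.0249, adjusted p = 0.449; rho = 0.69, p = 0.0694, adjusted p = 0.882), with r = 0.54 without Massa and Zelda. *C1qa* with the macrophage score gave r = 0.65 (exact permutation p = 0.0769, adjusted p = 0.477; rho = 0.43, p = 0.299, adjusted p = 0.882) and −0.19 without the same 2 tumors. With the stromal score r was −0.07 for *C1ra*, 0.15 for *C1s1*, −0.03 for *C4b*, −0.28 for *C3* and −0.02 for *Serping1*. Their exact permutation p ran from 0.497 to 0.962, with an adjusted p of 0.988 for each.

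**Figure D5:**
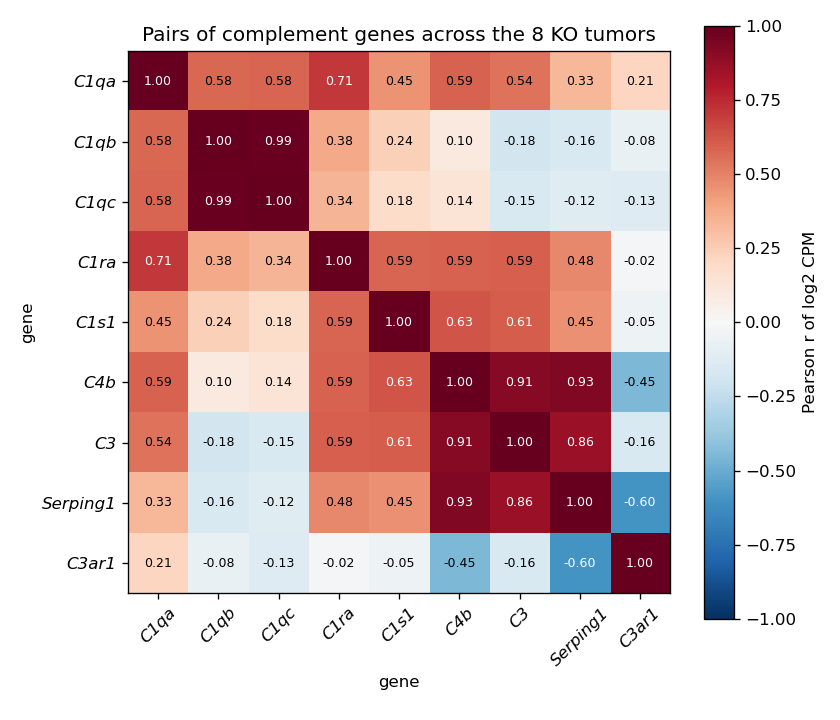
Pearson's r of log2 CPM for each pair of the 9 genes across the 8 KO tumors, from −1 (blue) to 1 (red). *C4b*, *C3* and *Serping1* form a block with r from 0.86 to 0.93, while *C3ar1* has r of −0.45 with *C4b* and −0.60 with *Serping1*, neither past the threshold.

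Over the 12 mice, counting each mouse as 1 value, the genes with the level most like each member were listed as a description. For *C1qa* they were *Mrc1* (r = 0.97), *Ctsb* (0.96), *Fcgr3* (0.94), *Rragc* (0.91) and *C1qtnf1* (0.91). For *C3ar1* they were *Fcgr1* (r = 0.92), *Fut11* (0.89), *Lpar1* (0.89), *Mfsd1* (0.89) and *Mbtps2* (0.89). *Mrc1*, *Fcgr3* and *Fcgr1* are among the 18 macrophage markers. For *C1qb* they were *Matn2*, *Tgif1*, *Btd*, *Abat* and *Gm49797* (r = 0.96 to 0.99), and for *C1qc* *Btd*, *Slc11a1*, *Tgif1*, *Matn2* and *Evi2a* (r = 0.95 to 0.98), lists that rest partly on Massa. For *C1ra* the list was *Gm6566*, *Gm4735*, *Lrrc8a*, *Tgfbi* and *Gm8210* (r = 0.90 to 0.91), and for *C1s1* *Calhm5*, *Trim6*, *Gm5112*, *Alox5* and *Snrpert* (r = 0.86 to 0.91). For *C4b* it included *Arl4a*, *Col14a1*, *Mff* and *Rgs7bp* (r = 0.82 to 0.94), for *C3* *Npy1r*, *Rab11a*, *Irf4*, *Gabra3* and *Vwf* (r = 0.88 to 0.91), and for *Serping1* *A4galt*, *Pnp*, *Lbp*, *Rps6ka3* and *Tmem185a* (r = 0.88 to 0.90). Mice of both groups enter these values, so a shared group difference raises r.

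Beyond the 9, the table held 50 other complement genes, of which 29 could be tested. In edgeR 3 were lower and 0 higher past the threshold, against 2.15% and 1.86% of all genes tested. At an unadjusted p under 0.05, 8 were lower and 1 higher, where 3546 of 15413 genes were under it in either direction. DESeq2, with 20078 genes tested, called 4 lower and 5 higher, against 958 and 1559 of all genes. The median log2 difference of the 29 was −0.67. *C5ar1*, the receptor for the C5 fragment on myeloid cells, was at 2.52 to 10.4 CPM in KO and 9.19 to 57.9 CPM in WT (log2 difference −2.96 ± 0.43 SE, edgeR adjusted p = 0.00250). *Itgam*, a chain of complement receptor 3 on myeloid cells, had −2.43 ± 0.63 (SE, edgeR adjusted p = 0.0408), and *Colec12*, a scavenger receptor with a collectin domain, had −1.80 ± 0.44 (SE, edgeR adjusted p = 0.0319). None of the 3 passed with counts summed per mouse, where only 4 of 16007 genes tested were called lower. Among the most abundant per kilobase were *Cd93*, a receptor of endothelial and myeloid cells, with −0.96 ± 0.42 (SE, edgeR adjusted p = 0.182), and *C1qbp*, a mitochondrial protein that also binds C1q, with 0.47 ± 0.28 (adjusted p = 0.329), neither of which passed.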

How the data were processed

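RNA was depleted of ribosomal RNA and sequenced for 50 cycles from 16 tumors. Per the labels and the study's methods, the authors aligned the reads with Novoalign 2.08.01 to mm10 with Ensembl transcript models, kept the best of multiple alignments, and deposited raw counts per gene, made with USeq, before running DESeq2 1.26.0. The strand is not given in the sources used here. Those raw counts were the only values used.

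Groups came from the genotype labels, and tumors sharing an animal code were taken as 1 mouse. No batch is labeled. The members and gene lists were chosen with earlier results of these data known. KO and WT were compared with edgeR 4.0.16 in R 4.3.3 (TMM, filterByExpr with a minimum count of 10 and total of 15, quasi-likelihood test, Benjamini-Hochberg over 15413 genes, threshold 0.05), leaving out 9641 genes. The SE is the log2 difference divided by the square root of F. DESeq2 1.42.0 and limma 3.58.1 (voom, mouse as a random effect) were alternatives, with other scalings, filters, covariates and left-out tumors. CPM are counts over TMM-scaled totals. Log2 CPM used a prior count of 2, and lengths are exon unions of GENCODE vM21 (GRCm38). Scores are mean log2 CPM of marker lists holding none of the 9 genes. Relations within KO used exact permutation in Python 3.11.15 with scipy 1.17.1. The fits were tested on simulated counts drawn independently for each tumor. Tumors sharing a mouse were not simulated, so that test does not bear on the calls that treat them as separate.

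A count of 3 equals 6.69 CPM in Massa, 4.03 in Grilka and 0.146 to 0.340 in WT, for counting error only. The p-values of the tumor-level fits measure the spread between tumors. Named genes were the 9, their near copies, other complement genes past the threshold or among the 3 most abundant, leading markers, the 5 most alike genes, and the targeted genes. A few genes that this rule names are not reported here. *Trp53* (log2 difference 0.55, edgeR adjusted p = 0.183) and *Rb1* (0.22, adjusted p = 0.734) had whole-gene counts that cannot show the floxed exons.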

Additional observations from a re-analysis of the deposited data

Results flagged for a closer look

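Of 18 groups of 8 tumors (9 genes in KO and in WT), 2 held a tumor far from the others, where chance gives about 1 in 20. Both were Massa in KO, with −2.56 log2 CPM of *C1qb* and −2.56 log2 CPM of *C1qc*. The next lowest KO tumor had 4.40 for *C1qb* and 3.82 for *C1qc*. The gap was 0.80 and 0.75 of the range, above the limit of 0.526 for 8 samples. Both values stand for 0 counts in the shallowest library, which has 1109487 counts, so they are set by the prior count. Without Massa the log2 difference was −2.06 for *C1qb* and −2.44 for *C1qc*.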

How the results depend on the processing

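The alternatives without N25 and Massa and without Montana and Oregon were chosen after seeing the data. The 618 genes called became 2517 with DESeq2, 17 with limma-voom and the mouse as a random effect, 10 with counts summed per mouse, 15 with 1 tumor per mouse, 8 without N42, 133 without N43, 1111 without N25 and Massa, 372 without Montana and Oregon, and 7, 86 and 12 with the ribosomal RNA, macrophage or stromal covariate. Leaving out 1 tumor gave 252 to 1348, with over 1.5 times more without Massa or Zelda and over 1.5 times fewer without Oregon or any tumor of N42 or N43. The 6 members called became 0 with limma-voom, with counts summed per mouse, with 1 tumor per mouse, without N42, with Medusa and Ohio alone and with each covariate, and 3 without N43. Leaving out 1 tumor gave 4 to 7. With limma-voom 7 members had an unadjusted p under 0.05. For limma-voom and the covariate fits the share of all genes at that unadjusted p was not computed. The 3 other complement genes became 9 with DESeq2, 5 without N25 and Massa, 1 without N43, without Montana and Oregon and with Medusa and Ohio alone, and 0 with limma-voom, per mouse, with 1 tumor per mouse, without N42 and with each covariate, with 1 to 5 when 1 tumor was left out.

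*C3* turned from 0.31 to −0.46 with limma-voom, −0.12 on library totals without TMM, −0.091 per mouse, −0.34 with 1 tumor per mouse, −0.038 without N42, −3.32 with Medusa and Ohio alone, −0.20 without Montana and Oregon, and −0.34 and −0.30 with the macrophage and stromal covariates, and ran from −0.26 to 1.07 when 1 tumor was left out. *C4b* turned from −0.15 to 0.11 without Massa and Grilka, 0.24 without N25 and Massa and 0.32 with the ribosomal RNA covariate, and ran from −0.81 to 0.15 when 1 tumor was left out (0.01, 0.03, 0.15 and 0.12 without Medusa, Ohio, N215 or N25). The fit with Medusa and Ohio alone keeps every WT tumor and uses the KO tumors lowest in *C3* and *C4b*, so its direction for them follows from that choice. *C1qb* and *C1qc* turned only with the macrophage covariate, to 0.51 and 0.066. The cause was not tested. *C1qa*, *C1ra*, *C1s1*, *Serping1* and *C3ar1* kept their direction under every alternative run.

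Library totals without TMM moved the median of all genes to −0.33 and the calls to 495 lower and 72 higher, against 331 and 287, and DESeq2 gave 958 and 1559. The 0 relations with a score became 3 without TMM and 1 with a prior count of 0.5, and stayed 0 when 1 KO tumor was left out. The 4 pairs became 9 without TMM, and 0 to 4 when 1 KO tumor was left out. No paired analysis was possible because KO and WT tumors came from different mice and no label numbers the replicates.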

Other observations

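Some other complement genes had most of their counts in a few tumors. They were chosen after their values were seen, and none of those tested in the comparison of KO with WT passed. *Hc*, which encodes C5, had 283 CPM in N25 lung and 154 CPM in Massa, the tumors with lung markers, 15.1 CPM in Zelda and at most 0.66 CPM elsewhere. *C7*, a component of the membrane attack complex, had 222 CPM in N25 lung, 45.3 CPM in Oregon and 33.5 CPM in Massa. *C8a* and *C8b*, made by the liver, had counts only in Zelda, at 12.3 and 2.85 CPM, and *C9* had 11.3 CPM there and at most 0.083 CPM elsewhere. *Cr2*, the complement receptor of B cells and follicular dendritic cells, had 499 CPM in Zelda, 29.0 CPM in N25 lung and at most 6.69 CPM elsewhere. *Cfd*, which encodes factor D and is abundant in fat, had 622 CPM in Montana, 31.3 CPM in Oregon and at most 28.0 CPM elsewhere.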
